A study of Mus musculus with 3 samples.

Results

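Interferon-high cells of the bulk electroporation library were set against interferon-negative cells of the same library. A cell here is a droplet barcode with at least 3000 UMIs (unique molecular identifiers, each standing for 1 captured transcript), at least 500 detected genes and at most 20% of UMIs from mitochondrially encoded genes. A bulk cell was interferon-high when it held at least 10 UMIs summed over the 5 genes Cxcl10, Isg15, Ifit1, Rsad2 and Oasl1, and interferon-negative when it held 0 of them. Both groups were compared within cells of 6000 to 20000 UMIs. This gave 661 high and 1984 negative cells of 4102 bulk cells in that window, while 1457 cells with 1 to 9 UMIs of the 5 genes belonged to neither group. The whole series held 17920 cells in 3 libraries. At any depth the rule took 1144 high and 2555 negative bulk cells of 5531.

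The study asked how neural progenitors of postnatal day 1 mouse brain respond to 2 ways of opening the cell membrane by electric pulses. The cells, of no stated strain or genotype, had been grown as floating spheres with 20 ng/mL epidermal growth factor, then spread on poly-D-lysine at 50000 cells and kept for 16 h. Bulk electroporation used a nucleofection instrument on dishes, localized electroporation applied 400 pulses of 20 V on a microdevice, and control cells carry no stated treatment. All were harvested 4 h after electroporation, and each condition is 1 library from 10000 loaded cells, so a library cannot be told apart from its condition. The labels name no cargo delivered with the pulses, no surface for the control cells and no number of pooled animals.

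Type I interferon answers foreign nucleic acid inside cells. Cytosolic sensors such as MDA5 (Ifih1) and RIG-I (Ddx58) for RNA, or cGAS for DNA, signal through IRF and NF-kB transcription factors to switch on interferon genes and some target genes directly, among them Cxcl10 and the Ifit genes. Secreted interferon binds its receptor and activates transcription factors that bind the interferon-stimulated response element before many antiviral genes. In mixed cultures such programs are known to start in some cells and not in others.

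The libraries held 74429007 to 85743257 UMIs. No doublet caller was run, so doublets below the limit of 20000 UMIs remain in both groups, and 6 to 9 cell barcodes were shared between any pair of libraries. High cells were deeper than negative cells, with medians of 12922 and 10544.5 UMIs, against 10232 UMIs in control cells of the same window. After each cell was thinned to 6000 UMIs, high cells held a median of 2216 genes and negative cells 2234 genes. Mitochondrial transcripts took a median of 4.41% of UMIs in high cells, 4.04% in negative cells and 3.34% in control cells. All levels below are UMI sums over the cells of a group, given as UMIs per 1000000 UMIs of that group (CPM). Their 95% intervals are exact Poisson for levels and exact Clopper-Pearson for shares of cells, and both cover counting error only. With 1 library per condition there are no replicates, so no p-value is given and a 2-fold difference marks size, not significance.

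The 5 genes that define the high cells encode the chemokine CXCL10, the ubiquitin-like ISG15, the RNA-binding IFIT1, the radical enzyme viperin (Rsad2) and an OAS-like protein (Oasl1). Their values chose the cells and are given only as a description. High cells held between 10 and 427 UMIs of the 5 genes together, with a median of 32. Cxcl10 supplied 52.7% of these UMIs and was found in 655 of the 661 high cells. Isg15 was found in 551 of them, Rsad2 in 442, Oasl1 in 418 and Ifit1 in 373. All 5 genes were present in 254 high cells, and Cxcl10 alone made up the whole sum in 54. The program was unevenly spread: the 66 cells with most UMIs of the 5 genes held 36.7% of the total. Around the threshold, 30 bulk cells held 9 UMIs and 38 held 8, while 39 held 10 and 23 held 11, so the cut falls within a continuous tail. At the low end 773 cells held a single UMI.

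The same rule found few high cells elsewhere. In the window, high cells made up 16.1% of bulk cells (15 to 17.3), 0.189% of localized cells (10 of 5303; 0.0905 to 0.347) and 0.124% of control cells (6 of 4847; 0.0454 to 0.269). Negative cells made up 48.4% of bulk, 96.8% of localized and 97.5% of control cells. With every cell thinned to 6000 UMIs the high shares were 11.04% in bulk, 0.113% in localized and 0.103% in control. In bulk the share moved with depth. It was 8.64% of cells with 6000 to under 10000 UMIs, 18.2% with 10000 to under 15000, 24.5% with 15000 to 20000 and 56.8% above 20000 UMIs. A fixed number of UMIs is reached more easily in a deep cell, but the part of this in the rise was not tested. Free RNA was also richer in these transcripts in the bulk library: barcodes of 10 to 100 UMIs held the 5 genes at 670 CPM in bulk, 56.0 CPM in localized and 42.1 CPM in control. The part of free RNA in the cells with 1 to 9 UMIs was not tested.

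**Figure D1:**
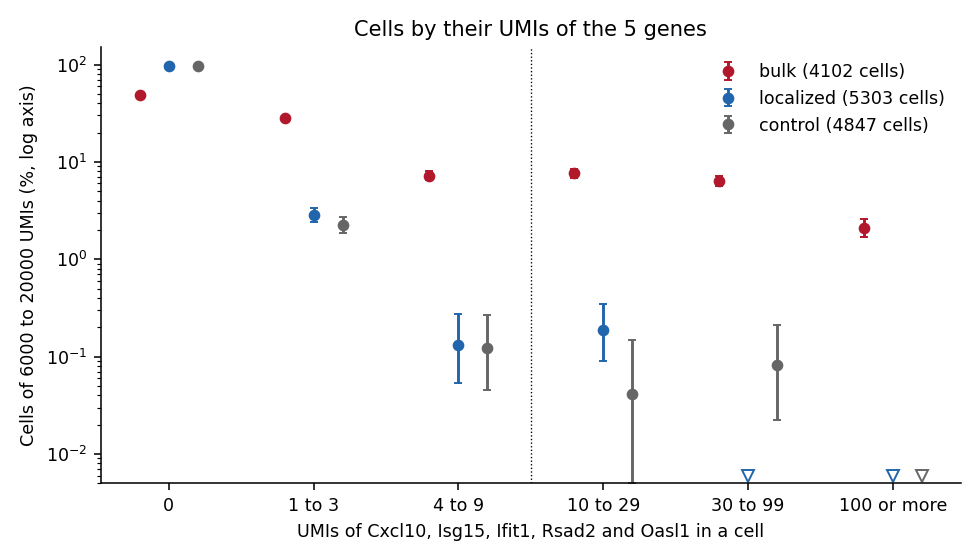
Percent of cells of 6000 to 20000 UMIs (log axis) by their UMIs of the 5 genes in bulk, localized and control libraries, with exact binomial intervals. Open triangles on the lower edge mark classes with no cell, an interval that meets the lower edge runs on below it, and the dotted line is the limit of 10 UMIs. Bulk cells fill every class, with 2.10% of them at 100 or more UMIs, where neither other library has a cell.

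The promoters of Cxcl10, Isg15 and 4 other genes higher in high cells are shown because they hold the sequence to which interferon-activated factors bind. They were picked for it, and the windows of Oasl2, Cmpk2, Ifit2, Herc6 and Atf3 held no match to this sequence. The 250 bases before the RefSeq start of each gene are printed 5′ to 3′ on the gene's own strand, on GRCm38.p6. They are chr5:92348890-92349139 for Cxcl10 (minus strand), chr4:156200819-156201068 for Isg15 (minus), chr19:34583279-34583528 for Ifit3 (plus), chr3:142620413-142620662 for Gbp2 (plus), chr11:48871421-48871670 for Irgm1 (minus) and chr8:61927837-61928086 for Ddx60 (plus). Capitals mark matches to the element's core, GAAA, any 2 bases and GAAA again, on either strand (TTTC, any 2 bases and TTTC when read on the other one), and in Cxcl10 also the 2 matches to the kappa B motif, which NF-kB binds.
Cxcl10: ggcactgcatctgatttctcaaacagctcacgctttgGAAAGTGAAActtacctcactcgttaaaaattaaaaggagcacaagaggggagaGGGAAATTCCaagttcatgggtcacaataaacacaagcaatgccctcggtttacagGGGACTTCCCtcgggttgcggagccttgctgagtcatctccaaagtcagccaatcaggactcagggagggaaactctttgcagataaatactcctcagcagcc
Isg15: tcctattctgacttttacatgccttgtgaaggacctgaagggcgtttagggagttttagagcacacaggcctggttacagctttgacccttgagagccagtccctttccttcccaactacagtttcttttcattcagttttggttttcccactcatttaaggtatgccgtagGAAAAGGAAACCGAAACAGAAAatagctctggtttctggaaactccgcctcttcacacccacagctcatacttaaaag
Ifit3: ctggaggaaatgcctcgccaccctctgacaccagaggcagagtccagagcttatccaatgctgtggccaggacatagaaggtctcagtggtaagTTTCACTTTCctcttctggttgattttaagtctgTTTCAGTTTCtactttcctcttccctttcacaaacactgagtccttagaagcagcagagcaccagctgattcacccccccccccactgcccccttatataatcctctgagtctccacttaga
Gbp2: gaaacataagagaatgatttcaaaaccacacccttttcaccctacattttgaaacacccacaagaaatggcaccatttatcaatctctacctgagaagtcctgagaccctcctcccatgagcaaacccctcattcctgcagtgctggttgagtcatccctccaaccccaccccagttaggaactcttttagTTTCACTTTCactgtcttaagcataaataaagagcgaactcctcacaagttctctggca
Irgm1: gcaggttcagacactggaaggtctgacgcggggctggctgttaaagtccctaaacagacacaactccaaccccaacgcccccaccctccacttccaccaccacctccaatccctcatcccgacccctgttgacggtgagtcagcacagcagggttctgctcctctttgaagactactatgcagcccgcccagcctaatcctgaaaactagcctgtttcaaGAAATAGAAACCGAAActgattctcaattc
Ddx60: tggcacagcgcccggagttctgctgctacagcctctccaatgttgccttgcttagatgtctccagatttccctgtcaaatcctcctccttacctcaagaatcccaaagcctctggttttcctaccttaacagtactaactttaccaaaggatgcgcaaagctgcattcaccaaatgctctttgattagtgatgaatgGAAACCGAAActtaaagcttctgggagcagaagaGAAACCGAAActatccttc

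The match of Cxcl10 begins 213 bases before the start (position -213), and its kappa B matches begin at -159 and -103. The element of Isg15 is a run of 3 overlapping matches that begin at -78, -72 and -66. The match of Ifih1 begins 32 bases after its start and is not printed. Positions count from the RefSeq start, which can differ from the gene's end in GENCODE. The GENCODE gene of Irgm1 (chr11:48861968-48871683) covers its whole printed window, and that of Gbp2 starts inside its window, at 142620602. A match is a description of these letters, not a binding site shown here.

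Antiviral effector genes outside the rule were higher in high cells almost throughout. Of 7827 genes with a mean of at least 10 CPM over both groups, the rule genes left out, 79 were at least 2-fold higher in high than in negative cells (1.01% of those compared) and 27 at least 2-fold lower (0.345%). Because the cells were chosen on interferon genes, these shares describe the contrast and are no independent evidence. Of the 79 genes, 35 held at least 10 CPM in negative cells, and of the 27, 14 held at least 10 CPM in high cells. The remaining genes of both sets reached the minimum only through the group in which they were higher. The log2 ratio used a pseudocount of 1 CPM, which understates the ratio of genes near 0 in negative cells, and its median over all compared genes was -0.03. The list of interferon-stimulated effectors held 70 genes, of which 53 were detected and 48 of these were higher in high cells. Among the 21 effectors that reached the 10 CPM minimum, 19 lay above 0, 13 were at least 2-fold higher and the median log2 ratio was 1.31. The others reached the minimum only through the high cells. Counted alone, the 10 that held at least 10 CPM in negative cells as well had a median of 0.40, and 2 of them were 2-fold higher. The median of the effectors also rested on the strongest cells: without the 66 strongest high cells it was 0.77.

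Ifit3, a relative of Ifit1 in the RNA-binding IFIT family, stood at 104 CPM in high cells (97.7 to 111) and 1.37 CPM in negative cells (0.923 to 1.95), a log2 ratio of 5.48. It was seen in 201 high cells, with up to 37 UMIs in 1 cell, and in 30 negative cells, never with more than 1 UMI. Oasl2, an OAS-like protein, stood at 77.7 CPM in high and 0.776 CPM in negative cells (log2 ratio 5.47). Rtp4, a receptor transporter with antiviral activity, stood at 63.7 CPM in high and 1.87 CPM in negative cells (4.49). In control cells Ifit3, Oasl2 and Rtp4 lay lower still, at 0.345, 0.269 and 0.364 CPM. Cmpk2, a mitochondrial nucleotide kinase next to Rsad2 in the genome, stood at 47.2 CPM in high and 2.01 CPM in negative cells (4.00). Ifit2 stood at 67.6 CPM in high and 7.85 CPM in negative cells (2.96). Ddx60, a helicase-related antiviral protein, stood at 21.4 CPM in high and 0.365 CPM in negative cells (4.04). The antiviral zinc-finger gene Zc3hav1, for ZAP, had a ratio of 2.32 and the RNA-activated kinase gene Eif2ak2, for PKR, one of 0.81. Weaker differences were seen in effectors that negative cells also expressed. Ifitm3, which blocks viral entry at membranes, stood at 142 CPM in high cells and 69.9 CPM in negative cells (1.02), against 80.8 CPM in control cells. Ifitm2 (0.19), Samhd1 (0.27) and Adar (0.48) differed little, and Nt5c3 (-0.44) and Tdrd7 (-0.23) were the effectors below 0.

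The interferon-inducible GTPases, which attack vacuoles and membranes of intracellular pathogens, were higher in high cells. All 4 members that reached the minimum were at least 2-fold higher, with a median log2 ratio of 3.07 against -0.03 for all genes, and all 12 detected members of the 17 listed were higher. Gbp2 and Irgm1 reached the minimum only through the high cells, and the other two members, with at least 10 CPM in negative cells, had a median of 2.56. Gbp2 stood at 67.4 CPM in high cells (62.0 to 73.1) and 2.87 CPM in negative cells (2.21 to 3.68), a log2 ratio of 4.14. Irgm1 stood at 50.4 CPM in high and 3.65 CPM in negative cells (3.47). Gbp7 and Gbp3 were already present in negative cells, at 13.9 and 10.5 CPM, and stood at 93.8 and 62.2 CPM in high cells. In the conjugation pathway of ISG15, Herc6, the mouse ligase, had a log2 ratio of 2.65 and was the single member at the minimum. With 4.79 CPM in negative cells, Herc6 reached it only through the high cells. Usp18, which removes ISG15 and damps the receptor, stood at 13.5 CPM in high and 0.593 CPM in negative cells. All 21 detected genes of MHC class I presentation were higher, and the 7 at the minimum had a median log2 ratio of 0.43 (0.33 over the 6 with at least 10 CPM in negative cells). The classical class I gene H2-K1 (0.20) and B2m (0.43) differed less than the nonclassical H2-T22 (1.14).

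**Figure D2:**
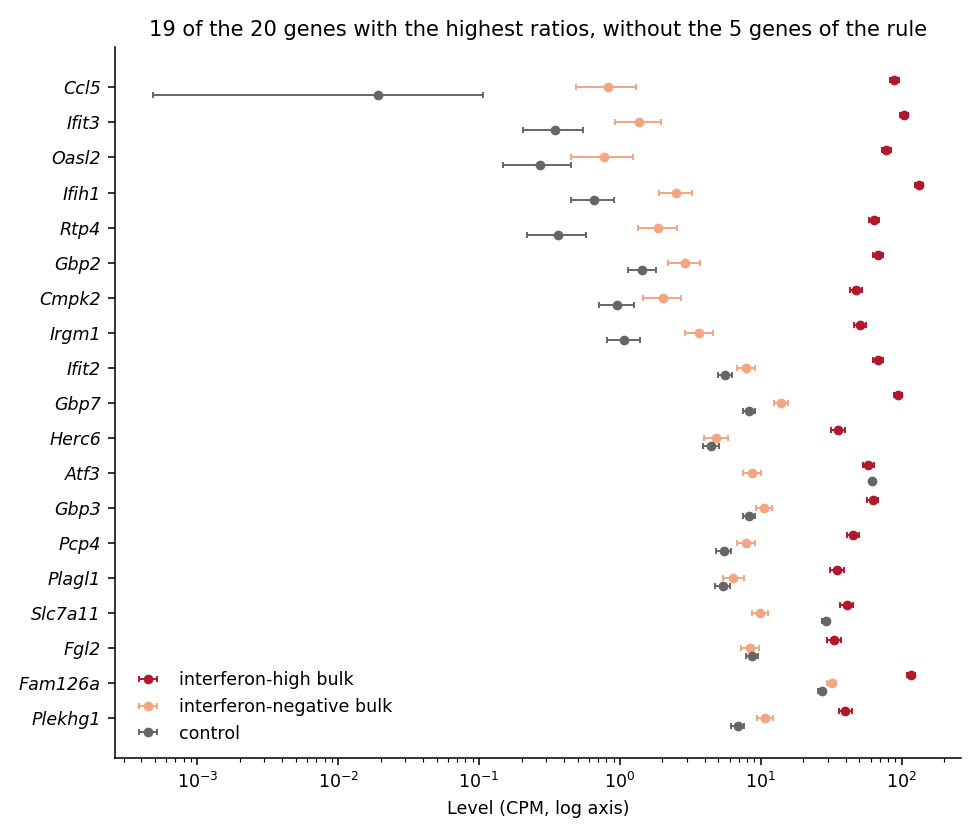
Levels (CPM, log axis) of 19 of the 20 genes with the highest log2 ratios among those with a mean of at least 20 CPM, the 5 rule genes left out, in interferon-high bulk, interferon-negative bulk and control cells, with exact Poisson intervals. Ccl5, at the top, stands at 88.5 CPM in high and 0.821 CPM in negative cells, and Atf3 has a control level near that of high cells.

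Among sensors and signalling genes, a few that interferon is known to induce were more than 2-fold higher, and the rest of those at the minimum stayed within 2-fold. Ifih1 (chr2:62595798-62646255 in GRCm38, minus strand) encodes the long double-stranded RNA sensor MDA5. It stood at 133 CPM in high cells (125 to 140) and 2.51 CPM in negative cells (1.89 to 3.27), against 0.652 CPM in control cells. The log2 ratio was 5.25. A UMI of Ifih1 was found in 61.6% of high cells, with a median of 1 UMI and at most 13, and in 2.77% of negative cells, with at most 1 UMI. After thinning to 6000 UMIs the shares were 43.3% of high and 1.71% of negative cells. Ddx58, for RIG-I, stood at 25.5 CPM in high and 2.92 CPM in negative cells (2.76). The other 5 sensors and adaptors at the minimum, such as Tbk1 (0.02), Ddx41 (0.04) and Traf3 (-0.39), had ratios of at most 0.04, and the list median was 0.02. Ifih1 and Ddx58 reached the minimum only through the high cells. The other 5, with at least 10 CPM in negative cells, had a median of -0.23. Cgas stood at 4.62 CPM in high and 4.79 CPM in negative cells, and Mavs at 6.13 and 5.66 CPM in high and negative cells. Of the interferon receptors, STATs and IRFs, 11 reached the minimum with a median log2 ratio of 0.09, and 2 were 2-fold higher. These 2 reached the minimum only through the high cells. The 9 with at least 10 CPM in negative cells had a median of 0.04, and 0 of them were 2-fold higher. Irf1, a transcription factor of interferon and its targets, stood at 18.0 CPM in high and 2.24 CPM in negative cells (2.56). The receptor chains Ifnar1 (-0.25) and Ifnar2 (-0.12) and the kinase Jak1 (0.04) differed little. Irf7, which amplifies interferon production, held 23 UMIs in high cells and 0 in negative cells.

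Interferon transcripts themselves were almost not seen. Over 21 interferon genes of types I, II and III, 20 had 0 UMIs in high cells. Ifnb1 had 0 UMIs in high cells, which by the limit of 3 counts set here for a count of 0 allows up to 3 UMIs in 8652685, and 0 in negative and control cells. Ifnz held 3 UMIs in high cells, 0 in negative cells and 4 in control cells. Among chemokines and cytokines, 4 of 25 genes reached the minimum, with a median log2 ratio of 0.78, but Ccl5 and Csf1 did so only through the high cells and the other two had a median of -0.09. Ccl5 (chr11:83525778-83530518, minus strand), a chemokine for T cells, had the highest ratio of all named genes. It stood at 88.5 CPM in high cells (82.4 to 95) and 0.821 CPM in negative cells (0.487 to 1.30), and at a single UMI in all control cells. Its log2 ratio was 5.62. Ccl5 was concentrated in few cells: 71 high cells (10.7%) held its 766 UMIs, with up to 63 in 1 cell. Csf1, the macrophage growth factor, stood at 21.8 CPM in high and 8.67 CPM in negative cells (1.24), while Cx3cl1 (0.32) and Il18 (-0.49) stayed within 2-fold. In the list of NF-kB subunits and feedback targets 9 of 10 genes lay above 0, none was 2-fold higher and the median was 0.32 (0.21 over the 8 with at least 10 CPM in negative cells). Relb (0.90), Vcam1 (0.84) and the inhibitor Nfkbia (0.76) were at its top, and Sod2 (0.01) was among the lowest. Relb and Vcam1, each at 7.85 CPM in negative cells, reached the minimum only through the high cells.

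The interferon-response genes differed in the class of cells from which they were higher. Bulk cells were split by UMIs of the 5 genes into 0 (1984 cells), 1 to 3 (1160), 4 to 9 (297), 10 to 29 (313), 30 to 99 (262) and 100 or more (86 cells). Ifih1 stood at 2.51, 6.69, 31.6, 67.3, 154 and 276 CPM over these classes in order, so it was above its level in negative cells (1.89 to 3.27) from the class of 1 to 3 UMIs on (5.41 to 8.19). Oasl2 stood at 0.776, 2.35, 8.80, 29.3, 89.3 and 197 CPM. Ccl5 stood at 0.821, 1.28, 1.92, 2.04, 45.9 and 479 CPM, so it lay at or under 2.04 CPM in the 4 lower classes and was far higher in the top 2. Ifit3 resembled Ccl5 more than Ifih1, at 1.37, 0.712, 3.30, 10.5, 85.3 and 453 CPM. Irf7 had 15 of its 23 high-cell UMIs in the 86 cells of the top class. The median UMIs per cell also grew over the classes, from 10544 in the lowest to 14862 in the highest. The part of depth in this order was not tested. Cells with 1 to 9 UMIs, pooled, had 0 genes 2-fold higher and 0 genes 2-fold lower than negative cells of 7813 compared at the 10 CPM minimum (0.0% each). Below that minimum some interferon genes were more than 2-fold higher in them: Ifih1 stood at 11.8 CPM in the pooled cells and 2.51 CPM in negative cells, Rtp4 at 6.05 and 1.87 CPM in these groups, and Oasl2 at 3.68 and 0.776 CPM.

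**Figure D3:**
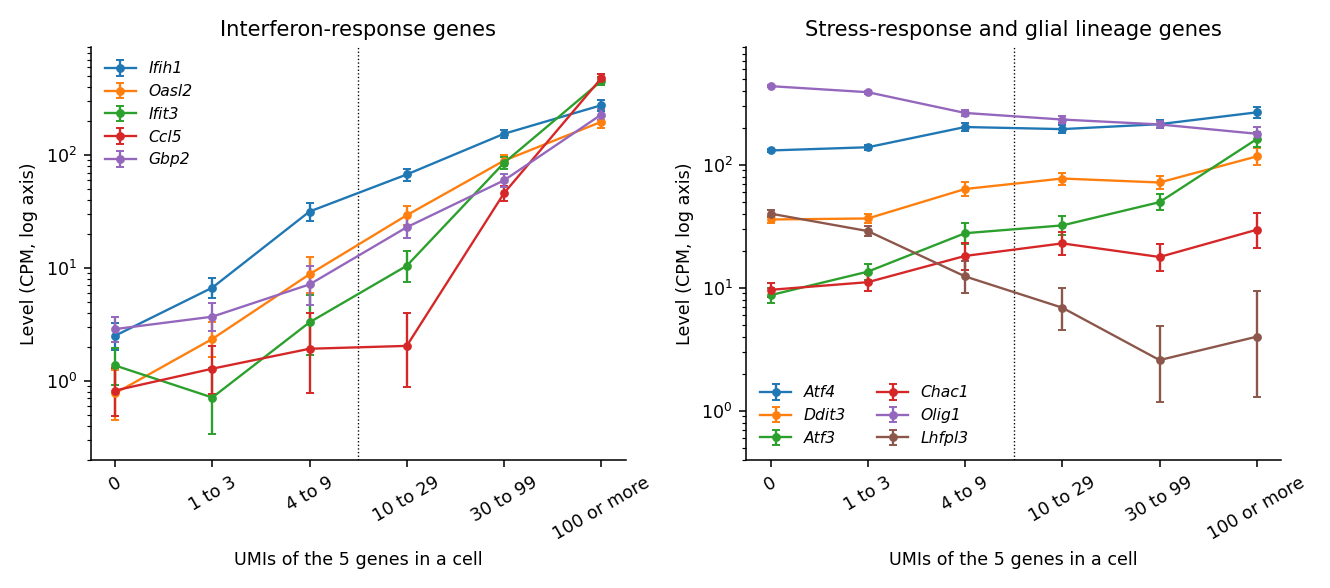
Levels (CPM, log axis, exact Poisson intervals) over bulk cells grouped by their UMIs of the 5 genes, for interferon-response genes on the left and for stress-response and glial lineage genes on the right. Ifih1 is higher from the class of 1 to 3 UMIs on, Ccl5 clearly so from 30 UMIs on, and Atf3 reaches 162 CPM in the top class while Lhfpl3 lies at 4.00 CPM there.

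Genes of the integrated stress response, which the kinases of eIF2alpha switch on through ATF4, stood higher in high cells as well. Of 25 listed genes 22 reached the minimum, all 22 lay above 0, 5 were 2-fold higher and the median log2 ratio was 0.74, against -0.03 for all genes, of which 43.9% lay above 0. Atf3, Slc7a11 and Chac1 reached the minimum only through the high cells, and the 19 members with at least 10 CPM in negative cells all lay above 0, with a median of 0.53 and 2 of them 2-fold higher. Atf3 (chr1:191170296-191218039, minus strand), a repressor induced by many stresses, stood at 57.9 CPM in high cells (52.9 to 63.2) and 8.71 CPM in negative cells (7.52 to 10.0), a log2 ratio of 2.60. Slc7a11, the cystine transporter, stood at 40.6 CPM in high and 9.85 CPM in negative cells (1.94). Ddit3, for the transcription factor CHOP, stood at 80.8 CPM in high and 35.9 CPM in negative cells (1.15), Chac1, which breaks down glutathione, at 21.8 and 9.63 CPM in high and negative cells (1.10), and Cebpb at 46.5 and 19.9 CPM (1.18). Atf4 itself stood at 213 CPM in high cells (203 to 223) and 131 CPM in negative cells (126 to 136). The serine synthesis genes Psat1 (0.09) and Phgdh (0.12) differed little. The endoplasmic reticulum unfolded protein response gave other values: its 14 genes had a median of 0.03 and none was 2-fold different. Within the largest cluster of bulk cells alone, the stress list kept a median of 0.61, and Atf3 had a ratio of 2.30.

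Most genes of this list were lower in both bulk groups than in control cells, and so they were in localized cells. Negative bulk cells against control cells gave 4 genes at least 2-fold higher (0.0522% of 7666) and 49 at least 2-fold lower (0.639%), and all 24 stress genes compared lay below 0, with a median of -1.19 against 0.08 for all genes. High cells against the same control cells gave 136 genes 2-fold higher (1.77% of 7691) and 56 lower (0.728%), and 19 of 24 stress genes lay below 0 with a median of -0.24 against 0.05 for all genes. Localized cells against the same control cells had all 24 stress genes below 0, with a median of -1.29 against 0.10 for all genes. A low level against control was thus not particular to bulk cells. All of these comparisons share the control cells. Ddit3 stood at 221 CPM and Chac1 at 72.1 CPM in control cells, above high cells as well as negative cells. Atf3 stood at 61.2 CPM in control cells, close to its level in high cells. Slc7a11 had a control level of 28.8 CPM, between the levels of high and negative cells.

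**Figure D4:**
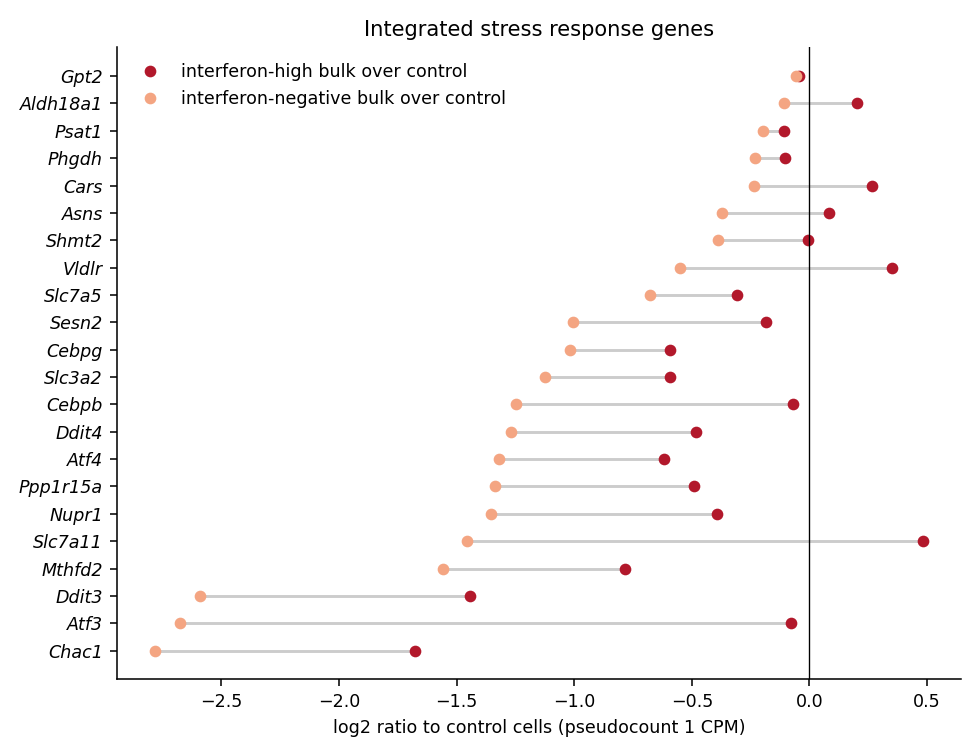
Log2 ratios to control cells (pseudocount 1 CPM) of 22 integrated stress response genes, for interferon-high and for interferon-negative bulk cells, ordered by the ratio of negative cells. Each high-cell point lies to the right of its negative-cell point, and 17 of the 22 high-cell points lie at or below 0.

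Cholesterol synthesis, which SREBP2 drives, went the other way. All 22 genes of the list that reached the minimum were lower in high than in negative cells, with a median log2 ratio of -0.45, against -0.03 for all genes. Nsdhl (-0.73) and Mvd (-0.71), which encode enzymes of the pathway, were among the lowest. Relative to control cells the list median was -0.93 in high cells and -0.45 in negative cells. Of the p53 targets 15 of 20 lay above 0 with a median of 0.24, which was 0.04 with a minimum mean of 50 CPM. Gdf15, also a stress-response cytokine, stood at 43.3 CPM in high and 15.1 CPM in negative cells (1.47), and Bbc3, the cell-death gene PUMA, at 58.4 and 25 CPM in high and negative cells (1.19). The list of cell death, necroptosis and pyroptosis genes had a median of 0.08 with none 2-fold higher. Membrane repair genes had a median of 0.15, with Anxa3 (1.2) as the single member past 2-fold. Targets of NRF2 had a median of 0.21, and Hmox1, heme oxygenase, stood at 117 CPM in high and 58.2 CPM in negative cells (0.99). Heat shock chaperones had a median of -0.02 with both directions inside. Hspb1 stood at 15.4 CPM in high and 4.93 CPM in negative cells (1.47), whereas Hspa8 stood at 743 CPM in high cells and 1309 CPM in negative cells (-0.82). Immediate early genes had a median of -0.02, S phase genes -0.15, G2/M genes -0.06 and mitochondrially encoded genes 0.06. The sign of these 4 medians, and of those of the heat shock, cell death, membrane repair and unfolded protein response lists, changed under at least 1 alternative.

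Among genes with a mean of at least 20 CPM, the 20 highest ratios also held genes of no interferon or stress list. Pcp4, a calmodulin regulator, stood at 45.1 CPM in high cells, 7.85 CPM in negative cells and 5.45 CPM in control cells (2.38 for high over negative). Plagl1, an imprinted zinc-finger factor, stood at 34.8 CPM in high, 6.39 CPM in negative and 5.37 CPM in control cells (2.28). Fam126a, for hyccin, stood at 117 CPM in high, 31.9 CPM in negative and 27.0 CPM in control cells (1.84), Fgl2 at 33.1, 8.35 and 8.63 CPM in high, negative and control cells (1.86), and Plekhg1 at 39.8, 10.7 and 6.87 CPM (1.80). For each of these 5 genes the negative cells lay closer to control cells than to high cells.

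The gene with the lowest ratio was a marker of oligodendrocyte precursors, and most of the other genes on the lower side were on no list. Lhfpl3 (chr5:22746059-23275597, plus strand), the marker in question, stood at 4.74 CPM in high cells (3.40 to 6.43) and 40.1 CPM in negative cells (37.5 to 42.8), a log2 ratio of -2.84. Cntn1, an axonal and glial adhesion protein, stood at 7.51 CPM in high and 34.0 CPM in negative cells (-2.04), and Nxph1 at 14.2 and 44.5 CPM in high and negative cells (-1.58). The glutamate receptor subunit gene Gria2 stood at 41.7 CPM in high and 93.9 CPM in negative cells (-1.15). The transcription factors Olig1 and Olig2 stood at 217 and 174 CPM in high cells against 436 and 302 CPM in negative cells (-1 and -0.79). Pou3f1, a POU factor of glial and neuronal precursors, stood at 14.4 CPM in high and 39.5 CPM in negative cells (-1.39), and Asrgl1, an asparaginase, at 58.0 and 135 CPM in high and negative cells (-1.21). Neto1 (-1.16), Fxyd6 (-1.09) and Kcna2 (-1.09), which encode a receptor accessory protein, an ion pump regulator and a potassium channel, were also among the 15 lowest. Above 20000 UMIs Pou3f1 (0.49) and Fxyd6 (0.13) lay above 0, as did Neto1 in the largest cluster (0.17). All 7 oligodendrocyte precursor markers at the minimum lay below 0, with a median of -0.78. Over all compared genes the median was -0.03 and 43.9% lay above 0. Of the 7 markers, 2 (Lhfpl3 and Olig1) were at least 2-fold lower. Lhfpl3, like Cntn1, held under 10 CPM in high cells and reached the minimum only through the negative cells. The 12 markers summed to 1095 CPM in high cells, 1744 CPM in negative cells and 1509 CPM in control cells. Pdgfra, the receptor that defines these precursors, had 8 of the 8652685 UMIs in high cells and 248 of the 21917963 UMIs in negative cells. Gpr17 had 0 UMIs in high cells, which allows up to 3 in their 8652685 UMIs, and 71 UMIs in negative cells.

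High cells were unevenly spread over cell states. The 4102 bulk cells were clustered without 504 genes, which gave 6 clusters, and the shares below compare cells of 1 library. Genes of the interferon, GTPase, sensor and cytokine lists were left out. So were genes at the 10 CPM minimum that differed at least 1.5-fold between high and negative cells. The choice of genes for clustering thus used this same contrast. High cells made up 19.8% of the unnamed cluster 0 (290 of 1465; 17.8 to 21.9), 17.6% of cluster 1 (210 of 1190), led by histone genes, and 17.4% of cluster 2 (123 of 706), which was dividing-like by Cdc20, Cenpa and Ccnb1. In cluster 3, unnamed and led by Ptprd, Pdgfra and Lhfpl3, they made up 1.21% (4 of 330; 0.331 to 3.07). In cluster 4, oligodendrocyte-like by markers such as Mbp and Bcas1, they made up 1.82% (6 of 329; 0.672 to 3.93). Cluster 5 was the smallest, unnamed, with a median of 6.29% mitochondrial UMIs, and 34.1% of its cells were high (28 of 82; 24.03 to 45.5). Median depth differed between clusters, from 7637 UMIs in cluster 4 and 9433.5 in cluster 3 to 13438 in cluster 1. Among cells of 8000 to 12000 UMIs the shares were 15.9%, 9.66%, 15.9%, 0.595%, 2.91% and 34.9% for clusters 0 to 5. After thinning to 6000 UMIs, 17.9% of cluster 3 and 25.2% of cluster 4 held at least 1 UMI of the 5 genes, against 44.8% of cluster 0.

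**Figure D5:**
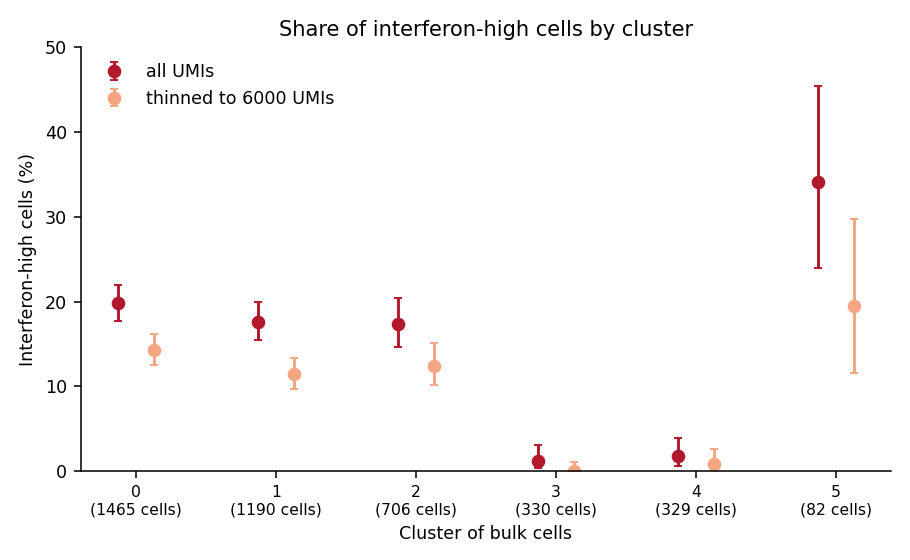
Percent of interferon-high cells in each of 6 clusters of bulk cells of 6000 to 20000 UMIs, with all UMIs and after thinning to 6000 UMIs, with exact binomial intervals. Clusters 3 and 4 lie at 1.21% and 1.82%, the others between 17.4% and 34.1%.

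Without clusters 3 and 4 the count of genes at least 2-fold lower was 11 in place of 27, and 8 of the 27 were still 2-fold lower. The ratio of Lhfpl3 was then -1.11, that of Cntn1 -0.39 and that of Gria2 -0.50, and the median of the precursor markers was -0.45. Olig1 kept a ratio of -0.90. Within single clusters Olig1 stood at 308 CPM in high and 476 CPM in negative cells of cluster 0 (-0.63), at 139 and 341 CPM in high and negative cells of cluster 1 (-1.29), and at 127 and 357 CPM in those of cluster 2 (-1.49). Lhfpl3 in cluster 0 stood at 5.53 CPM in high and 6.94 CPM in negative cells (-0.28). The higher genes held within clusters. Ccl5 had a ratio of 6.02 in cluster 0, 4.90 in cluster 1 and 5.99 in cluster 2, and Ifih1 had 5.70, 4.48 and 5.31. The stress list had medians of 0.61, 0.87 and 0.73 in these clusters, and the cholesterol list -0.32, -0.49 and -0.45.

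Defining markers of immune cells were at or near 0 in both groups. The 16 microglia or macrophage markers summed to 7.28 CPM in high, 6.84 CPM in negative and 7.77 CPM in control cells, and 12 of them had 0 UMIs in high cells. Endothelial markers summed to 3.24 CPM in high and 3.19 CPM in negative cells. Of the 9 lymphoid or plasmacytoid dendritic markers 7 had 0 UMIs in high cells, and their sum of 16.8 CPM in high and 4.65 CPM in negative cells was nearly all Bst2, at 16.6 and 4.33 CPM in high and negative cells, which interferon also induces. Mural or fibroblast markers summed to 498 CPM in high, 361 CPM in negative and 358 CPM in control cells, led by the contractile genes Tagln (0.56) and Acta2 (0.43), and their part in the results was not tested. Neural stem or progenitor markers summed to 9312 CPM in high, 9165 CPM in negative and 8451 CPM in control cells, and their median log2 ratio of high over negative was 0.15 (-0.01 in the largest cluster). Of the 16 progenitor markers at the minimum, 12 lay above 0 and 4 below, and 1 was at least 1.5-fold lower. Among the higher ones, the intermediate filament gene Nes (0.17) and the stem cell factor Sox2 (0.14) stood at 480 and 371 CPM in high cells, against 426 and 336 CPM in negative cells.

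The leading genes were also higher among cells that the comparison did not use. Among bulk cells above 20000 UMIs, 466 were high and 105 negative by the same rule, and all 20 leading genes lay above 0, with 19 of them at least 2-fold higher and a median log2 ratio of 2.01. Ifih1 stood there at 105 CPM in high and 0.775 CPM in negative cells. Of the 15 lowest genes 13 lay below 0 and 0 were 2-fold lower. Among bulk cells of 3000 to under 6000 UMIs, 17 were high and 466 negative, 19 of the 20 leading genes were at least 2-fold higher and 12 of the 15 lowest at least 2-fold lower. In control cells the 6 high cells against 4725 negative cells had 18 of the 20 leading genes at least 2-fold higher and 9 of the 15 lowest at least 2-fold lower. Those 6 cells held 13 UMIs of Ifit3, 9 of Oasl2, 8 of Ifih1 and 0 of Ccl5. In localized cells the 10 high cells against 5134 negative cells had 15 of the 20 at least 2-fold higher and 10 of the 15 lowest at least 2-fold lower, with 10 UMIs of Rtp4 and 0 of Ccl5. With so few cells a ratio can rest on 1 UMI or on none. Pou3f1, Fchsd2, Sept3 and Epb41 had 0 UMIs in the 6 control cells, with intervals of the ratio that reach above 0. All these cells were picked by the same 5 genes, and no share over all genes is given beside the counts. The counts are therefore a description and no independent evidence.

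The letters of the interferon element were found more often before the higher genes than before all compared genes. Windows of 250 bases before to 50 after a gene's start held this core on either strand in 3.44% of all 32851 RefSeq windows, and for 217 of the 6295 compared genes with a window (3.45%). Among the 79 genes at least 2-fold higher, 67 had a window and 16 of these held the element (23.9%). It was found in 10 of 23 genes at least 4-fold higher (43.5%), in 6 of 44 genes 2-fold to 4-fold higher (13.6%) and in 0 of 17 genes at least 2-fold lower. Most of the genes at least 4-fold higher reached the minimum only through the high cells, which were chosen on interferon genes. Among genes with at least 10 CPM in negative cells the core was found in 6 of 30 genes at least 2-fold higher (20%), against 204 of 6156 of all genes compared at that level (3.31%). Of the genes 2-fold higher, 13 of 20 in an interferon list held it (65.0%), against 3 of 47 in no such list (6.38%). No share was taken over list genes that were not 2-fold higher. This split therefore cannot tell a trait of the lists from a trait of the contrast. The kappa B motif had another spread. It was found in 5.83% of compared genes, in 2 of 23 genes at least 4-fold higher (8.70%) and in 12 of 44 genes 2-fold to 4-fold higher (27.3%), among them Plekhg1, Csf1, Bbc3 and Rnf213. Promoters of 2 of the 20 integrated stress response genes with a window held the interferon element, and 0 held the kappa B motif.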

How the data were processed

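Single-cell RNA was captured with 10x 3' chemistry in 3 libraries. The authors deposited whole-number UMI counts per gene and barcode, unfiltered, for 32285 genes. Cell Ranger 4 made them per the file headers, while the submitters' processing notes name Cell Ranger 6, Seurat 4.0.4 and GRCm38. The annotation release is not given in the sources used here. Gene coordinates are from GENCODE on GRCm38.

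The members and gene lists were chosen with earlier results of these data known. UMIs were summed over the cells of a group and scaled to CPM. A pseudocount of 1 CPM was added before log2 ratios were taken, over genes with a mean of at least 10 CPM over the 2 groups compared. Named genes are the 20 highest and 15 lowest ratios at a mean of at least 20 CPM (no predicted, Rik or ribosomal protein genes), all members of 6 interferon, sensor and cytokine lists and up to 4 members of each other list. Further list members were named after their values were seen. With 1 library per condition no test across samples was possible, and intervals cover counting error only, since cells of 1 library are not replicates.

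Bulk cells of the window were clustered (Leiden, resolution 0.5, 30 components, 15 neighbours, 2000 variable genes) without 504 genes. These were interferon, GTPase, sensor and cytokine list genes and genes at least 1.5-fold different between high and negative cells. Clusters took a name only from markers among their leading genes. The ratio and interval code was tested on simulated data. Tools were Python 3.11.15, numpy 2.4.6, scipy 1.17.1, pandas 2.3.3, scanpy 1.11.5 and leidenalg 0.10.2. Alternatives were other UMI windows, limits for high cells, thinning, depth weights, scaling, pseudocounts, minimum levels, a mitochondrial limit and subsets of cells. No doublet caller was run. Results for some genes are not reported here.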

Additional observations from a re-analysis of the deposited data

Results flagged for a closer look

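Barcodes of 10 to 100 UMIs, which are too shallow to be cells and were used in no comparison, held more of the interferon transcripts in the bulk library than in the control library. The 5 genes of the rule together stood at 669.7 CPM in these bulk barcodes (643.5 to 696.7), against 42.1 CPM in those of the control library (35.1 to 50.1). The 20 genes with the highest ratios together stood at 390.8 CPM in the bulk barcodes (370.8 to 411.5), against 187 CPM in the control barcodes (171.9 to 203.2). In localized barcodes these genes stood at 108.8 CPM (96.8 to 121.8). The 20 also hold stress genes such as Atf3 and Slc7a11 and unlisted genes such as Pcp4, so their sum does not measure interferon transcripts alone. The part of such RNA in the cells with 1 to 9 UMIs of the 5 genes was not tested.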

How the results depend on the processing

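No paired analysis was possible because each group has 1 library, and no library could be left out. The count of 79 genes at least 2-fold higher was 11 with a minimum mean of 50 CPM and 206 with no minimum, and stayed within 1.5 times of 79 under the other alternatives. The count of 27 genes at least 2-fold lower was 41 with high cells from 20 UMIs, 54 after thinning, 44 as a mean over cells, 13 with a pseudocount of 5 CPM, 3 with a minimum of 50 CPM, 149 with no minimum and 16 in the largest cluster. It was 11 without clusters 3 and 4 and 8 among cells above 20000 UMIs, both chosen after seeing the data. The effector median of 1.31 was 0.92 with high cells from 5 UMIs, 1.73 from 20 UMIs, 1.75 after thinning, 0.98 with a pseudocount of 5 CPM, 0.85 with no minimum and 0.77 without the top 10% of high cells. The share of high cells was 21.6% from 5 UMIs, 11.2% from 20 UMIs, 11.04% after thinning and 19.8% in the largest cluster. Genes 2-fold different from control numbered 192 for high cells, but 124 with a pseudocount of 5 CPM, 34 with a minimum of 50 CPM and 504 with no minimum. For negative cells they numbered 53, but 17 with a minimum of 50 CPM and 94 with no minimum. The log2 ratio changed sign for Neto1 in the largest cluster (0.17) and for Fxyd6 (0.13) and Pou3f1 (0.49) above 20000 UMIs, and for these the cause was not tested. Fewer genes and cells enter under a higher minimum or within a subset. Of 630 alternative values for 42 named genes, 484 kept their size, 143 moved beyond the counting interval and 3 changed sign. Of 323 alternative values for 22 list medians, 39 changed sign, in lists with medians near 0: S phase reached 0.10 in the largest cluster, G2/M 0.09 without clusters 3 and 4, the mitochondrial list -0.30 above 20000 UMIs and the progenitor markers -0.01 in the largest cluster. The sensor median (0.02) and the receptor median (0.09) also changed sign, to as low as -0.12 and -0.05 above 20000 UMIs. With depth weights 70 of the 79 higher genes and 16 of the 27 lower genes stayed past 2-fold. In the largest cluster 56 of the 79 and 7 of the 27 did so. Among cells above 20000 UMIs 43 of the 79 higher genes and 2 of the 27 lower genes were past 2-fold.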

Other observations

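Several genes outside the lists, chosen after their values were seen, were at least 2-fold higher in high cells. Gadd45g, a growth arrest gene, stood at 359 CPM in high cells (346 to 372) and 130 CPM in negative cells (125 to 135), against 124 CPM in control cells. Tnfrsf12a, the TWEAK receptor, stood at 289.9 CPM in high, 125 CPM in negative and 105 CPM in control cells. Cnr1, the cannabinoid receptor, stood at 24.04 CPM in high, 3.74 CPM in negative and 4.22 CPM in control cells. In these 3 genes the negative cells lay near the control cells. Krt17, a keratin, stood at 24.04 CPM in high cells (20.9 to 27.5) and 0.182 CPM in negative cells (0.0497 to 0.467), and at 1 UMI in all control cells.

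Others differed between negative and control cells as well. Col27a1, a collagen, stood at 26.0 CPM in high, 11.3 CPM in negative and 3.66 CPM in control cells. Vgf, a neuropeptide precursor, stood at 16.4 CPM in high, 7.48 CPM in negative and 1.38 CPM in control cells. Both were thus higher in each bulk group than in control cells. Klf4, an immediate early factor, stood at 29.5 CPM in high, 11.8 CPM in negative and 51.1 CPM in control cells. The metallothionein Mt2 stood at 844 CPM in high, 408 CPM in negative and 690 CPM in control cells. B3gat2, a glucuronyltransferase, was lower, at 3.93 CPM in high cells (2.72 to 5.49) and 20.2 CPM in negative cells (18.4 to 22.2).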
